A study of Mus musculus with 2 samples.

Results

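The genes described here make sterols and fatty acids and are targets or controllers of SREBP, the sterol regulatory element binding proteins. A list of 35 such genes was matched by symbol to the single-gene probe sets of an expression array. Probe sets of 33 of the 35 genes were found, 67 probe sets in all, out of 12393 genes and 20380 probe sets with 1 gene symbol. No probe set named here was found for Acat2, the cytosolic enzyme that joins acetyl-CoA units, or for Insig1, a sterol-regulated anchor protein, so their expression was not analysed here and they enter the promoter description alone. All 33 matched genes were measured, meaning that the brighter of their signals reached the floor of 44.0 explained below.

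Messenger RNA came from RAW 264.7 cells, an established mouse macrophage-like tumour line, kept for 4 h with 1000 U/ml IFN-gamma, either alone or together with 300 uM adenosine. IFN-gamma was thus present in both groups, and no untreated array was analysed here. For both groups the serum-supplemented growth medium was replaced by new DMEM shortly before treatment, and the labels do not say whether that medium held serum. RNA of 2 experiments was pooled for each treatment before hybridization to 1 array, so there is no replicate, no test and no p-value, and the precision of all values is limited by there being 2 arrays. The study asked how adenosine alters the expression response of IFN-gamma-activated macrophages.

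Cholesterol synthesis starts when acetyl-CoA units are built into mevalonate. Mevalonate is turned into isoprenoid diphosphates, these into squalene, and squalene into lanosterol and then cholesterol. Fatty acid synthesis draws on the same acetyl-CoA and ends with elongation and desaturation of the chain. SREBP2, encoded by Srebf2, mainly drives the sterol genes, and SREBP1, encoded by Srebf1, mainly the fatty acid genes. Both are held in the endoplasmic reticulum by the escort protein SCAP and the INSIG proteins when sterols are plentiful, and move to the Golgi to be cleaved and freed when sterols run low. Macrophages use these pathways for membrane growth, prenylation of signalling proteins and lipid remodelling during activation.

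The adenosine array was dimmer than the IFN-gamma array, with a median deposited signal of 15.2 against 45.9, and every signal given for it below was multiplied by 2.82 to remove the median log2 shift of -1.50. Whether that shift was technical was not tested. The median log2 ratio of the hybridization controls spiked into both samples (18 probe sets) was -0.53. Different probe sets for 1 gene scattered with a log2 SD of 0.52 over 2375 genes. This SD is used below as the error of a ratio, and it leaves out the spread between cultures. In 4 groups of these genes from dimmest to brightest it was 0.56, 0.57, 0.53 and 0.41. By signal Mvd, Dhcr7 and Hsd17b7, described below, fell in the dimmest group, and Cyp51 and Stard4 in the next. All 8 macrophage markers were measured, with summed signals of 28571 and 37999. They did not move one way, since Lyz2 went from 6444 to 13361 while Fcgr1 went from 3388 to 1181 and Csf1r from 5552 to 5005. None of the 4 adipocyte, 3 hepatocyte, 4 fibroblast or 3 lymphocyte markers with a probe set was. Their summed signals on the IFN-gamma and adenosine arrays were 6.90 and 15.5, 13.2 and 8.17, 16.8 and 22.8, and 13.5 and 8.17, and none was at exactly 0. A bulk array cannot tell less RNA per cell from fewer cells that carry the RNA.

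With adenosine the listed sterol and fatty acid genes had a higher median ratio than all measured genes, though not every listed gene did. Of the 33 genes, 24 had a higher centred signal with adenosine and 9 a lower one. Over all 6818 measured genes, 3000 were higher and 3816 lower. The median log2 ratio (with adenosine over without) of the 33 genes was 0.41 against -0.08 for all measured genes. Of the 33, 26 lay above that all-gene median. Without any scaling the median was -1.05 against -1.50 for all genes. Scaled to the spiked-in controls it was -0.56 against -1.01. The sign of the median therefore depended on the scaling, while its distance above the all-gene median was 0.49, 0.46 and 0.46 in the same order. These scalings differ by a constant factor, which leaves that distance unchanged except through the floor and the choice of brightest probe set. Over all settings tried it was smallest, 0.33, when the ratios of all measured probe sets of a gene were averaged. It was 0.34 with a floor at the 67th percentile and 0.37 with a pseudocount of 16 in place of the floor. The largest distance was 0.50, with quantile scaling.

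At least 2-fold higher with adenosine were 5 of the 33 genes (15.2%), against 4.52% of all measured genes. None was at least 2-fold lower, against 10.1% of all measured genes. With a 1.5-fold limit the counts were 11 higher (33.3%, against 12.9% of all genes) and 2 lower (6.06%, against 21.8%). These are counts by size on 1 array per treatment. In the values as deposited no listed gene was 2-fold higher and 18 (54.5%) were 2-fold lower, against 78.8% of all genes, and with spiked-in scaling 8 (24.2%) were, against 50.7%. When the ratios of all measured probe sets of a gene were averaged, 2 genes (6.06%), Dhcr7 and Scd2, were at least 2-fold higher, against 3.91% of all genes. Means for Mvd, Cyp51, Hsd17b7 and Stard4 were 0.99, 0.78, 0.72 and 0.85. A floor set at the 67th percentile also gave 2 of 27 measured (7.41%, against 2.63%), Stard4 and Cyp51. Mvd (0.08) and Dhcr7 (0.54) were then short of 2-fold, since their IFN-gamma signals lay under that floor of 165, and Hsd17b7 was not measured.

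**Figure D1:**
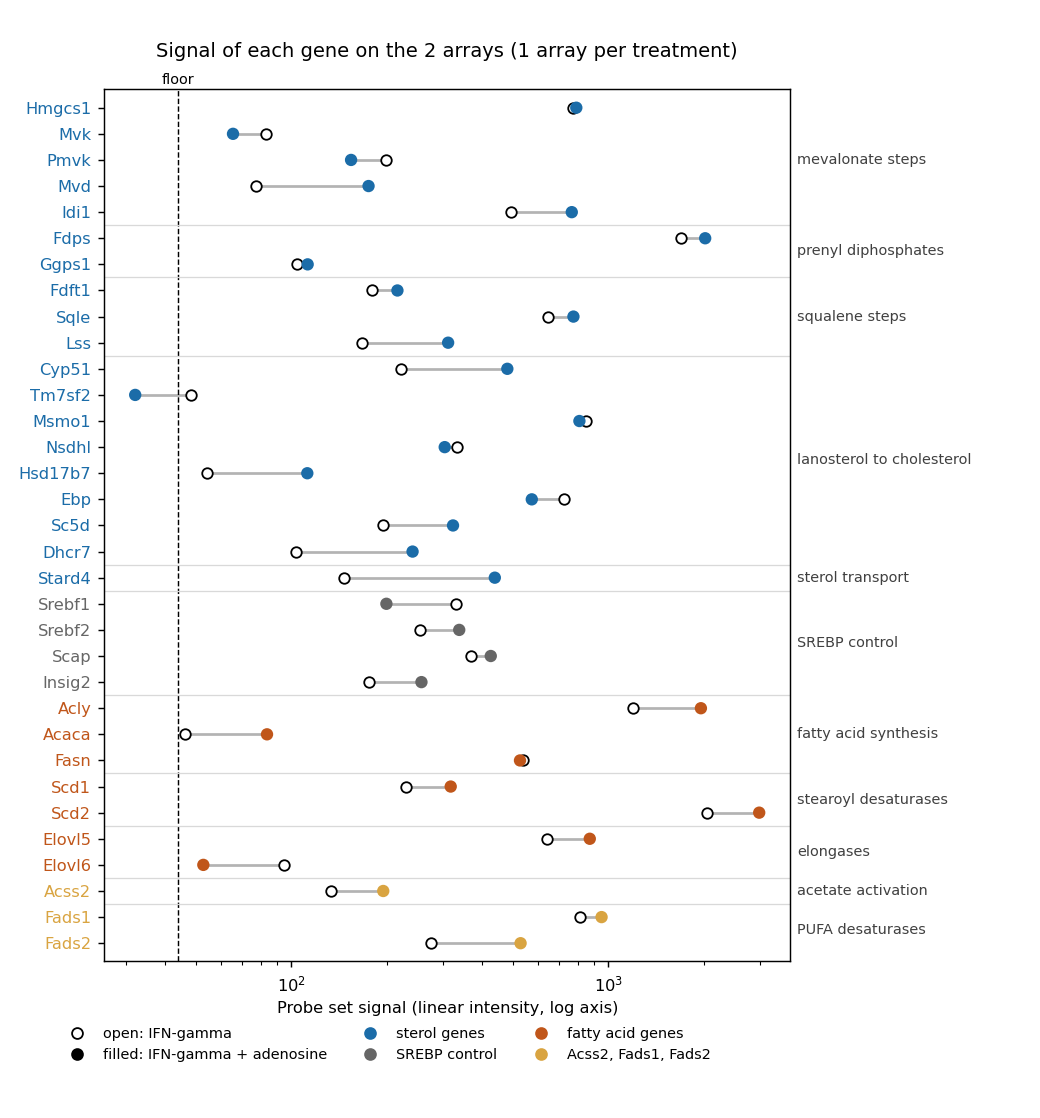
Signal of the brightest probe set of each of the 33 measured genes on the IFN-gamma array (open circles) and the adenosine array after median centring (filled circles), on a log axis, ordered by pathway step. The dashed line is the floor of 44.0. Filled circles lie to the right of open ones for 24 genes, with the widest gap for Stard4 (146 and 438).

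The mevalonate steps were split. Hmgcs1, the synthase that makes HMG-CoA, was at 774 with IFN-gamma and 792 with adenosine by its brightest probe set, a log2 ratio of 0.03. Its other 3 probe sets gave -0.28, -0.50 and 0.30, so this gene lay on either side of 0 within probe set scatter. Mvk, the mevalonate kinase, was at 82.9 and 65.4 (log2 ratio -0.34), and Pmvk, the kinase of the next step, at 199 and 154 (-0.37), both inside the SD of 0.52. The next enzyme stood apart from these. Mvd, the decarboxylase that yields isopentenyl diphosphate, was at 77.5 with IFN-gamma and 175 with adenosine, 2.26-fold higher, and another probe set gave 0.80 on the log2 scale, there with the IFN-gamma signal (41.1) below the floor. Idi1, the isomerase that follows, was at 493 and 766, a log2 ratio of 0.63 (second probe set 0.18).

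Of the prenyl and squalene enzymes, 4 lay within probe set scatter of 0 and 1, Lss, lay above it. Fdps, which makes farnesyl diphosphate, was at 1698 and 2019 (log2 ratio 0.25), and Ggps1, which makes the geranylgeranyl donor of protein prenylation, at 104 and 112 (0.11), with 1 of its other probe sets at 0.14 and the rest at -0.36 and -0.26. Fdft1, the squalene synthase, was at 180 and 216 (log2 ratio 0.26). Sqle, the squalene epoxidase, was at 643 and 775 (0.27). Lss, which closes the ring to lanosterol, was at 167 and 312, a log2 ratio of 0.91, and rests on 1 measured probe set that the array names as shared between targets.

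Genes of the steps from lanosterol to cholesterol were divided. Higher with adenosine were Cyp51, the lanosterol demethylase (222 and 480, 2.16-fold), Hsd17b7, a sterol ketoreductase (54.2 and 112, 2.07-fold), Sc5d, the C5 desaturase (195 and 323, 1.66-fold), and Dhcr7, the last reductase of one branch (103 and 241, 2.33-fold). By another probe set the log2 ratio was 0.44 for Cyp51 and 0.39 for Hsd17b7, short of 2-fold. The Hsd17b7 signal with IFN-gamma was close to the floor, and with a pseudocount of 16 in place of the floor its log2 ratio was 0.87. The other 4 genes of this stretch were below 0. Msmo1, the C4 methyl oxidase, was at 847 and 810 (log2 ratio -0.07), Nsdhl, the dehydrogenase acting with it, at 332 and 304 (-0.13), and Ebp, the sterol isomerase, at 726 and 573 (-0.34). Tm7sf2, a C14 reductase, was at 48.1 and 32.1, the latter below the floor (-0.13 with that signal raised to the floor). By these values none of the 4 lay beyond the probe set SD, but the floor allowed Tm7sf2 no lower value. With a lower floor, at the 33rd percentile, the log2 ratio of Tm7sf2 was -0.58, beyond that SD.

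Stard4, a soluble sterol carrier, had the highest ratio of the list. Its brightest probe set was at 146 with IFN-gamma and 438 with adenosine, a log2 ratio of 1.58 that ranked at percentile 99.0 of all measured genes. Its second probe set was at 171 and 185, a log2 ratio of 0.12. The high value came from a probe set whose name ends in _a_at, an ending that marks probes common to several transcripts of 1 gene. Leaving out all probe sets that end in _s_at, _x_at or _a_at gave 0.12 for Stard4, and leaving out those in _s_at and _x_at alone, which can match several genes, kept 1.58. By the brightest probe sets, it was also the only one of the 33 genes whose deposited signal was higher with adenosine (155 against 146). The other 4 genes at least 2-fold higher, Mvd, Cyp51, Hsd17b7 and Dhcr7, had deposited log2 ratios of -0.32, -0.38, -0.45 and -0.27. With spiked-in scaling these were 0.21, 0.15, 0.08 and 0.25, and Stard4 was at 0.62.

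**Figure D2:**
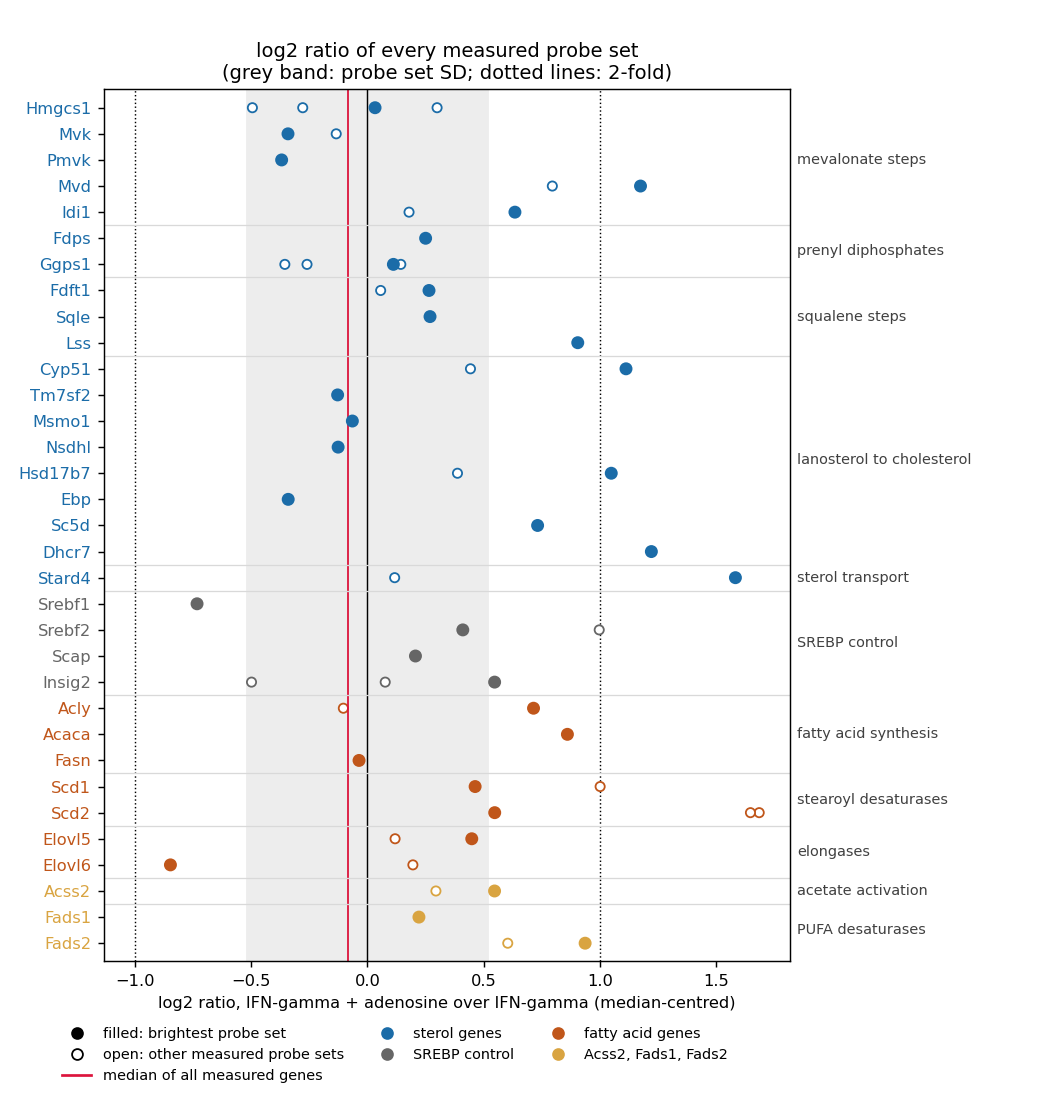
log2 ratio (with adenosine over without) for each measured probe set of the 33 genes, ordered by pathway step, with the brightest probe set filled and the others open. The grey band is 0.52 on either side of 0, the probe set SD; 5 sterol genes reach the 2-fold line with their brightest probe set, and the other 2 Scd2 probe sets and 1 of Scd1 reach it too.

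By the brightest probe sets the 5 genes at least 2-fold higher all belong to sterol synthesis or transport. With probe sets averaged they were Dhcr7 (1.22) and the fatty acid gene Scd2 (1.29). At 2-fold, by the brightest probe sets, 5 sterol genes (26.3%) and no fatty acid gene were higher, against 4.52% of all measured genes. By the median, however, the sterol genes were not above the fatty acid genes. The 19 measured sterol genes had a median log2 ratio of 0.26 (quartiles -0.10 and 0.98) and the 7 fatty acid genes one of 0.46 (quartiles 0.21 and 0.63). The difference of these medians, sterol minus fatty acid, was -0.20. The probe set SD of 0.52 is for a single ratio, and no error was estimated for this difference. Under the scalings, floors and probe set choices tried, the difference lay between -0.21 and -0.18. Scaling by a constant factor cannot change it, except through the floor and the choice of brightest probe set. Quantile and loess scaling, which use no constant factor, gave -0.182 and -0.176. With Acss2, Fads1 and Fads2 counted among the fatty acid genes the difference was -0.24. At the 1.5-fold limit 12.9% of all measured genes were higher and 21.8% lower. There 8 sterol genes (42.1%) were higher and none was lower. Of the fatty acid genes 2 (28.6%) were higher and 1 (14.3%), Elovl6, was lower.

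Genes of the first fatty acid steps differed from each other. Acly, which splits citrate into cytosolic acetyl-CoA, was at 1193 and 1958, 1.64-fold higher, and another probe set of lower signal gave the same log2 ratio of 0.71. The one marked as shared between targets gave -0.10. Acaca, the acetyl-CoA carboxylase, was at 46.1 and 83.7 (log2 ratio 0.86), from a signal just above the floor and with 1 probe set. Fasn, the fatty acid synthase itself, was at 539 and 526, a log2 ratio of -0.04. Fasn thus sat next to the all-gene median, while Acly and Acaca, which act before it, lay above.

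The stearoyl-CoA desaturases, which make oleate and palmitoleate, showed larger ratios in their less bright probe sets. Scd2 was at 2045 and 2989.9 by its brightest probe set, a log2 ratio of 0.55. Its other probe sets went from 824 to 2652 and from 266 to 834, which is 3.22-fold and 3.14-fold higher, and both were also above their IFN-gamma signal as deposited (log2 ratios 0.19 and 0.15). Scd2 would therefore count as at least 2-fold higher by 2 of its 3 probe sets, and the mean of the 3 was 1.29. Scd1 was at 231 and 318 (log2 ratio 0.46), with a second probe set at 105 and 211 (1.00). Scd1 and Scd2 are close paralogs, and cross-hybridization between them was not tested.

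Elongases and polyunsaturated fatty acid enzymes were mixed. Elovl5, an elongase of polyunsaturated chains, was at 640 and 873 (log2 ratio 0.45, second probe set 0.12). Elovl6, which elongates palmitate to stearate, had the lowest ratio of the list, at 94.9 and 52.7 (log2 ratio -0.85), but its second probe set was at 48.0 and 55.0 (0.20). Fads2, the delta-6 desaturase, was at 276 and 528, 1.91-fold higher, with its second probe set at 0.60. Fads1, the delta-5 desaturase, was at 816 and 951 (log2 ratio 0.22). Acss2, which activates acetate to acetyl-CoA, was at 133 and 195 (log2 ratio 0.55, second probe set 0.29).

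The 2 SREBP genes lay on opposite sides of 0. Srebf1 was at 331 with IFN-gamma and 199 with adenosine, a log2 ratio of -0.73 beyond the probe set SD. This rests on a single probe set whose name ends in _a_at, so Srebf1 has no value where probe sets ending in _a_at are left out. Srebf2 was at 255 and 338 (log2 ratio 0.41) by its brightest probe set and at 139 and 277 (1.00) by the other. Both were negative in the values as deposited (-2.23 for Srebf1 and -1.08 for Srebf2). Centring subtracts a constant, so the order of the 2 genes could not differ there. The arrays do not report which SREBP1 isoform the Srebf1 probe set measured, nor protein cleavage. Scap, the escort, was at 369 and 425 (log2 ratio 0.21). Insig2, which retains the SCAP complex in the endoplasmic reticulum, was at 176 and 257 (0.55), with other probe sets at 0.08 and -0.50.

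**Figure D3:**
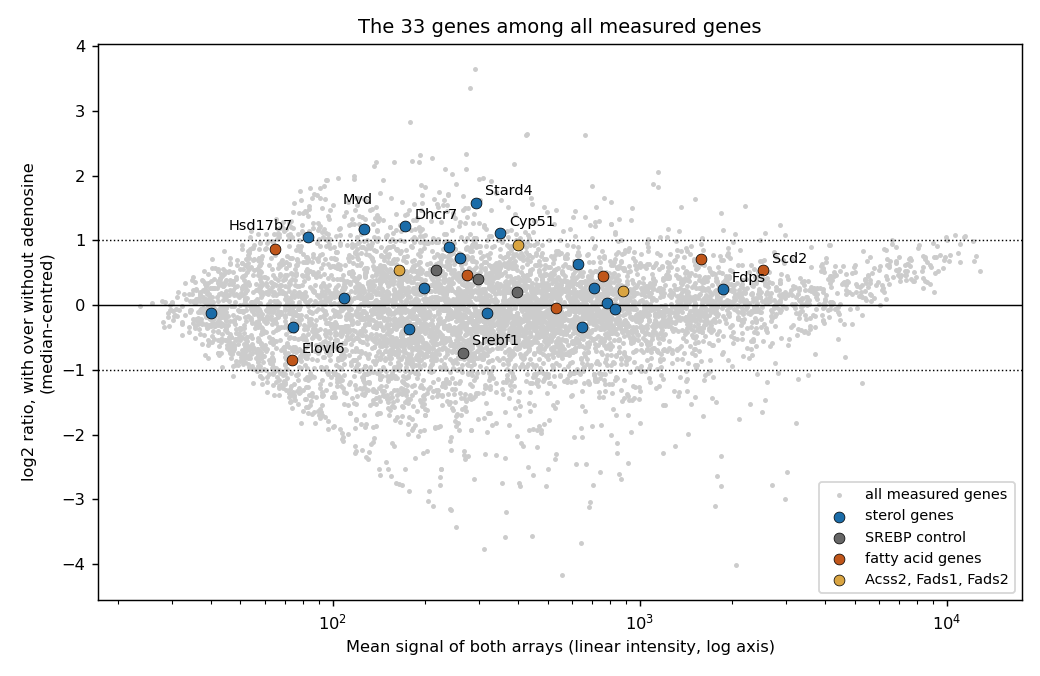
log2 ratio against the mean signal of both arrays (log axis) for all 6818 measured genes (grey) and the 33 genes (coloured by set), with dotted lines at 2-fold. The 5 genes above the upper line have IFN-gamma signals from 54.2 to 222, and none of the 33 lies below the lower line.

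Direction could be compared between probe sets for the 18 genes with at least 2 measured. Of these 18 genes, 12 had all probe sets above 0, 1 had all below 0, and 5 had probe sets on both sides. The matching shares over all genes were not computed, so these counts are a description only. The median range between probe sets of a gene was 0.56 on the log2 scale and the largest 1.47, in Stard4. Of the 58 measured probe sets of these genes, 42 (72.4%) were above 0, against 46.2% of the 11042 measured single-gene probe sets of the array. At least 2-fold higher were 8 (13.8%, against 5.88%), and none was 2-fold lower (against 9.51%). The other 15 genes rest on 1 measured probe set each, among them Dhcr7, Lss, Acaca, Fasn and Srebf1.

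Ratios over the whole array varied somewhat with signal. With all measured genes split into 5 groups by mean signal, the median log2 ratio was 0.04 in the brightest group and -0.17 in the second dimmest. After loess scaling, which removes such a trend, the median of the 33 genes was 0.45 against -0.04 for all measured genes, and 7 of the 33 (21.2%) were at least 2-fold higher against 5.28% of all genes. Fads2 (1.02) and Lss (1.00) joined the 5 genes there. With median centring the share of all genes at least 2-fold higher also varied with signal. In the 5 groups, from dimmest to brightest, it was 5.72%, 6.75%, 5.35%, 2.79% and 1.98%. Hsd17b7 fell in the dimmest of these groups, Mvd and Dhcr7 in the next, and Cyp51 and Stard4 in the middle one.

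Promoters of the higher genes are shown because SREBP acts at promoters jointly with the factors NF-Y and SP1. Promoter sequence from RefSeq (build GRCm38.p6) was matched for 28 of the 35 genes, 36 start sites in all. None was matched for Stard4, Sqle, Fdps, Fdft1, Scd1, Scd2 and Fads1, so these genes were not searched. The 250 bases before each start were searched on both strands for a sterol regulatory element (letters TCACNCCAC), an NF-Y box (CCAAT) and a GC box bound by SP1-type factors (GGGCGG). None of these motifs contains another. The sequences below are the 3 highest-ratio genes with 1 annotated start, Mvd at chr8:122443423-122443672 (- strand), Cyp51 at chr5:4104698-4104947 (- strand) and Hsd17b7 at chr1:169969206-169969455 (- strand), and Hmgcs1 at chr13:119690101-119690350 (+ strand), the only matched gene with the sterol element. Each runs 5′ to 3′ on the strand of its gene and ends at the base before the start. Capitals mark the NF-Y box, read as ATTGG on the opposite strand, and the sterol element.
Mvd: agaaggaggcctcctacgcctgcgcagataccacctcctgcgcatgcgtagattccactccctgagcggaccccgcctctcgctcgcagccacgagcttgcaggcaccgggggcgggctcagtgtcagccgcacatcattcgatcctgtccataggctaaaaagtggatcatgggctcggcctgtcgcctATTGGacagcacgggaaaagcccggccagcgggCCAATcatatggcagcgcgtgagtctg
Cyp51: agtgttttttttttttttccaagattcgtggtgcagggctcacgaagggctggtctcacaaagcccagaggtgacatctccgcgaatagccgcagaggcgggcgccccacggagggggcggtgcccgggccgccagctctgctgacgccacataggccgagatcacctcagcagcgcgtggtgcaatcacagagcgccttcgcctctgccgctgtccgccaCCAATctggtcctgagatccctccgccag
Hsd17b7: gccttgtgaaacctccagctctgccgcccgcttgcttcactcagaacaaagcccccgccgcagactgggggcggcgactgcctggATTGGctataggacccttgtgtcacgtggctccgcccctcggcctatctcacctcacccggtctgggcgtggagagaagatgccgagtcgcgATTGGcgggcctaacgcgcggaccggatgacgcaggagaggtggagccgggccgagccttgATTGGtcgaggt
Hmgcs1: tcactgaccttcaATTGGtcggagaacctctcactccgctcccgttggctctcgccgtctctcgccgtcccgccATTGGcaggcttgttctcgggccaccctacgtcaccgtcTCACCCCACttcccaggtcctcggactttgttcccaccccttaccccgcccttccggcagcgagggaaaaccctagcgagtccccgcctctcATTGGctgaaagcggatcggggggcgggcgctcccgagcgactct

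NF-Y box letters were common before these genes. They were found for 22 of 28 genes (78.6%), against 40.9% of the 5652 measured genes with a promoter and 37.5% of all 27025 genes. Among sterol genes the count was 15 of 16, and among fatty acid genes 2 of 5, in Fasn and Elovl5. In Mvd the boxes began 60 and 27 bases before the start, in Cyp51 29 bases before it, and in Hsd17b7 165, 73 and 12 bases before it. Hmgcs1 had 3 NF-Y boxes, beginning 237, 176 and 45 bases before its start, and the sterol element at 137. Hmgcs1, with a log2 ratio of 0.03, was the only gene with all 3 motifs.

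The sterol element itself was found before 1 of 28 genes (3.57%), against 1.27% of measured genes, and the GC box before 22 of 28 (78.6%), against 66.8% of measured genes. Genes with several starts were counted if any start had a match. A match is a description of letters, and a missing match says only that those letters are not in this window.

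**Figure D4:**
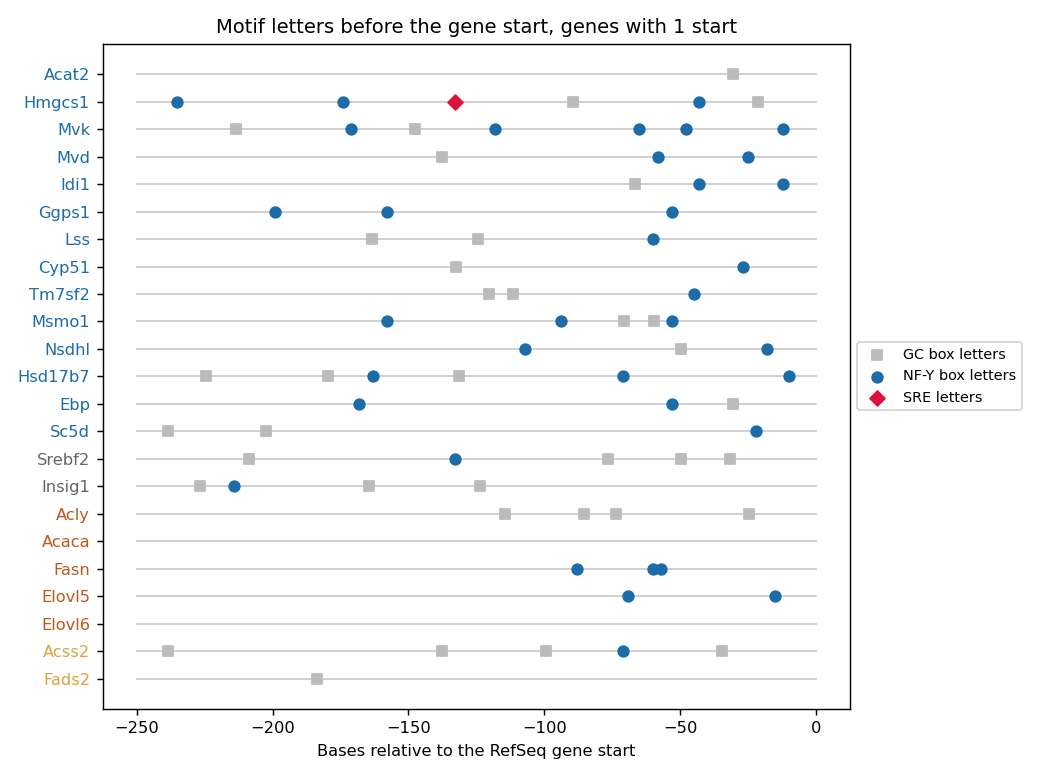
Positions of NF-Y box (blue circles), GC box (grey squares) and sterol element (red diamond) letters in the 250 bases before the start of the 23 genes with 1 annotated start, in pathway order, with the x axis in bases relative to the start. The only sterol element is in Hmgcs1, and Acaca and Elovl6 hold none of the 3 motifs.

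Genes around these pathways had lower medians than the listed genes, a difference that could not be tested. Enzymes that use farnesyl and geranylgeranyl groups, dolichol or ubiquinone (9 of 13 listed measured) had a median log2 ratio of 0.11. None was 2-fold higher, against 4.52% of all measured genes, and 1 (11.1%) was 2-fold lower, against 10.1%. That was Rabggtb, a subunit of the transferase that prenylates RAB proteins, at 612 and 267 (log2 ratio -1.20). Its partner subunit Rabggta was at 236 and 158 (-0.58), and Dhdds, of dolichol synthesis, at 230 and 143 (-0.68), with other Dhdds probe sets at 1.03 and 0.05.

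A list drawn up for SREBP processing and sterol-driven protein degradation (4 of 8 measured) had a median of -0.56. None of the 4 was above 0, against 3000 of all 6818 measured genes. That median includes Ubxn2a, a UBX domain protein whose part in these processes is not established here. Ubxn2a had the lowest value of the 4, at 307 and 115 (log2 ratio -1.42), but its second probe set gave 0.19. Erlin1 was at 600 and 596 (-0.01). Marchf6, a ubiquitin ligase that acts on squalene epoxidase, was at 484 and 271 (-0.84). Mbtps1, the first protease that cleaves SREBP, was at 352 and 291 (-0.27), with a second probe set at 0.74.

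Further sterol genes (9 of 11 measured) had a median of -0.12. Stard3, a late endosomal sterol transfer protein, was at 391 and 144, 2.71-fold lower, on the other side of 0 from Stard4. Npc1, which exports cholesterol from lysosomes, was at 94.4 and 145 (log2 ratio 0.62), and Osbp, an oxysterol-binding protein, at 241 and 178 (-0.44).

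Further fatty acid genes (15 of 25 measured) had a median of 0.11. In this list 1 gene (6.67%) was 2-fold higher and 1 (6.67%) lower, against 4.52% and 10.1% of all measured genes. Aacs, which activates acetoacetate for sterol and fatty acid synthesis in the cytosol, was at 96.9 and 202, 2.08-fold higher. The log2 ratio was 1.30 by its second probe set, and as deposited the first gave -0.44. Tecr, the last enzyme of the elongation cycle, was at 854 and 1463 (log2 ratio 0.78, second probe set 0.29). Mcat, of mitochondrial fatty acid synthesis, went from 107 to 31.0, below the floor, and was at least 2.43-fold lower.

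**Figure D5:**
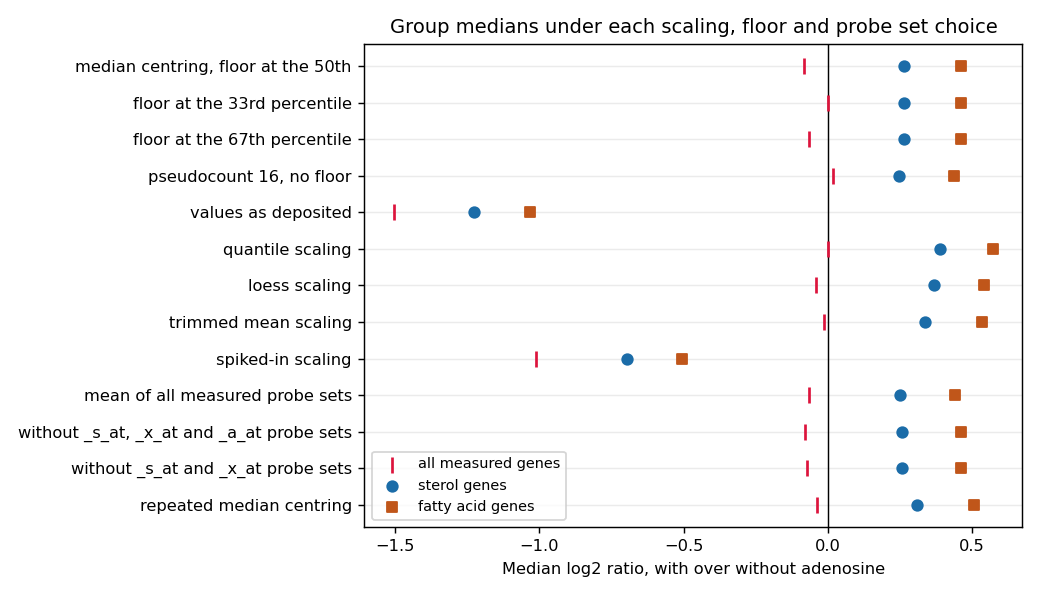
Median log2 ratio of all measured genes (red bars), the sterol genes (blue circles) and the fatty acid genes (orange squares) under each scaling, floor and probe set choice. Sterol genes lie between the other medians in every line, and all 3 medians are negative without scaling (-1.50, -1.23 and -1.03) and when scaled to the spiked-in controls (-1.01, -0.70 and -0.50). Scaling by a constant factor moves all 3 medians together, except through the floor and the choice of brightest probe set.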

How the data were processed

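The authors deposited 1 linear intensity value per probe set and array, 22690 probe sets on 2 arrays. Per the submitters' processing notes GCOS, an Affymetrix program, was used. Its algorithm and scaling target are not stated. Control probe sets (64) stayed out of gene values. Symbols came from the platform annotation and were updated by Entrez identifier from RefSeq (GRCm38.p6), where 20351 of 20380 single-gene probe sets matched.

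For each probe set the log2 ratio (with adenosine over without) was taken. The median over the 10041 probe sets brighter than the pooled median on both arrays was subtracted. Scaled signals under 44.0, their 50th percentile, were raised to that floor. A gene was measured if its brighter signal reached the floor, which is a convention and no detection limit. The probe set with the highest mean signal stood for its gene. Genes were counted at 2-fold, with 1.5-fold and 3-fold as alternatives. No test was possible with 1 array per treatment. The scripts were tested on simulated data with known changes. Python 3.11.15, pandas 2.3.3, numpy 2.4.6 and statsmodels 0.14.6 were used.

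The genes and lists were chosen with earlier results of these data known, so nothing here is independent support for a pattern seen before. Every listed gene is accounted for. The 6 highest and 4 lowest ratios, all fatty acid and SREBP control genes, and the 3 largest absolute ratios of each related list were to be described in full. Other values were named after they had been seen. Alternatives were other floors, a pseudocount of 16, other scalings and other probe set rules.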

Additional observations from a re-analysis of the deposited data

How the results depend on the processing

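No paired analysis was possible because there are no replicates: 1 array stands for a treatment, so none could be omitted either. Counts at 2-fold, given as all genes higher, all genes lower, listed genes higher and listed genes lower, were 308, 691, 5 and 0. Without scaling they became 10, 5605, 0 and 18. Scaled to the spiked-in controls they were 33, 3538, 0 and 8. The floor at the 67th percentile gave 133, 328, 2 and 0, and the floor at the 33rd gave 599 higher genes. A 1.5-fold threshold gave 879, 1489, 11 and 2, and a 3-fold threshold 67, 202, 0 and 0. The mean of all measured probe sets gave 2 listed genes higher. Medians of the listed, sterol and fatty acid genes (0.41, 0.26 and 0.46) became -1.05, -1.23 and -1.03 without scaling. Scaled to the spiked-in controls they were -0.56, -0.70 and -0.50. Under quantile, loess, trimmed mean and repeated median centring, the pseudocount and the other probe set rules, the listed-gene median was 0.27 to 0.50. The sterol median was 0.25 to 0.39 there and the fatty acid median 0.44 to 0.57. The all-gene median was -0.08 to 0.02 under the same settings. Repeated centring, and leaving out probe sets ending in _s_at and _x_at alone (5 listed genes higher of 32), were chosen after seeing the data. Of the 24 listed genes above 0, 1 remained above 0 as deposited. Among named genes at least 2-fold higher, signs turned there for Aacs (-0.44), Cyp51 (-0.38), Dhcr7 (-0.27), Hsd17b7 (-0.45) and Mvd (-0.32). Of calls, the share that was lower was 69.2%, 99.8% as deposited, 99.1% with spiked-in scaling and 58.8% with quantile scaling.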
